A study of Mus musculus with 8 samples.

Results

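Translation initiation and elongation factors are the cytosolic proteins that bring a ribosome to the start codon of an mRNA and then carry it along the message. A list of 39 such genes was examined among the 19857 genes of the count table, and all 39 were found by symbol. The list holds 5 factors of start site selection and subunit joining, 5 subunits of eIF2 and its exchange factor eIF2B, 12 subunits of eIF3, 9 factors of the eIF4 family and 8 elongation factors. Tongue RNA came from 4 wild type (WT) mice and 4 mice of genotype PABPN1A17/+ (A17/+), all female and 12 months old. A17/+ mice carry 1 copy of a Pabpn1 allele whose protein has a longer alanine tract, and they are a model of oculopharyngeal muscular dystrophy. The labels state no strain, no treatment and not how the allele was made, each library is a separate mouse, and the RNA came from frozen sections cut at mid-tongue.

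In the cell, eIF2 carries the initiator tRNA to the small ribosomal subunit, and eIF3 is the large scaffold on that subunit. The eIF4 proteins bind the mRNA cap and unwind the leader, and eIF4G also binds the poly(A) binding protein at the other end of the message. During elongation eEF1A delivers aminoacyl-tRNA and eEF2 moves the ribosome by a codon. Mature skeletal muscle is known for using Eef1a2 as its form of eEF1A, while most other tissues use Eef1a1.

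Library totals ran from 205696 to 485326 counts, and the 39 members held 1816 to 3268 of them. WT 2 to 4, with 205696 to 314493 counts, were below every A17/+ library (395061 or more). Genes detected were 11339 to 14164 in WT and 14219 to 14437 in A17/+, and mitochondrial transcripts took 4.17% to 6.43% and 7.24% to 11.0% of the counts, with no overlap in either measure. The part of these differences in the results was not tested beyond the fits on thinned counts and without mitochondrial transcripts. Levels below are in CPM, the counts of a gene relative to those of all tested genes, after scaling by trimmed mean of M-values (TMM), and fold changes are A17/+ over WT from the edgeR quasi-likelihood test. In the correlation of all tested genes, WT 1 was closest to A17/+ 1 and A17/+ 1 to WT 1, and each of the other libraries was closest to one of its own genotype. Xist had 243 to 485 counts in each library, which goes with the female label. Markers of muscle fibre and of tongue epithelium, 8 of each, were present in all 8 libraries. WT 1 had far more salivary gland transcripts than the rest, with 0.205% of the scaled counts for 5 genes against at most 0.00570% in any other library. In bulk RNA, fewer cells of a type and less RNA per cell cannot be told apart.

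The eIF3 subunits Eif3f, Eif3h and Eif3m, the start codon factor Eif1 and the muscle elongation factor Eef1a2 were higher in A17/+ tongue. The eIF2 gamma subunit gene Eif2s3x was lower, at about 0.491 times its WT level. These calls were not equally firm under alternative settings. Eef1a2 was lost in 16 of 21, Eif3f in 7 of 20, Eif3h and Eif3m in 3 of 20 each, Eif1 in 1 of 21 and Eif2s3x in 0 of 21. Of the 39 members 34 had enough counts to be tested, 5 of these were higher and 1 lower, and the other 28 did not pass at an adjusted p of 0.05. Over all 5066 genes tested, 8.94% passed, 6.34% as higher and 2.61% as lower. The unadjusted p was under 0.05 for 12 of the 34 members, against 25.1% of all genes. The median log2 fold change of the 34 was 0.28, with 23 above 0, and the median of all genes was 0.01, with 50.5% above 0. Together the members took 0.877% ± 0.145 of a WT library and 0.769% ± 0.104 of an A17/+ library (scaled counts, SD, n = 4), ranges that overlap. The 4 A17/+ levels lay wholly above the WT levels for 4 tested members and wholly below for 1, against 8.57% and 6.08% of all genes, 14.6% in all. Among the members above, Eif3h had enough counts to be tested through its A17/+ libraries only.

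**Figure D1:**
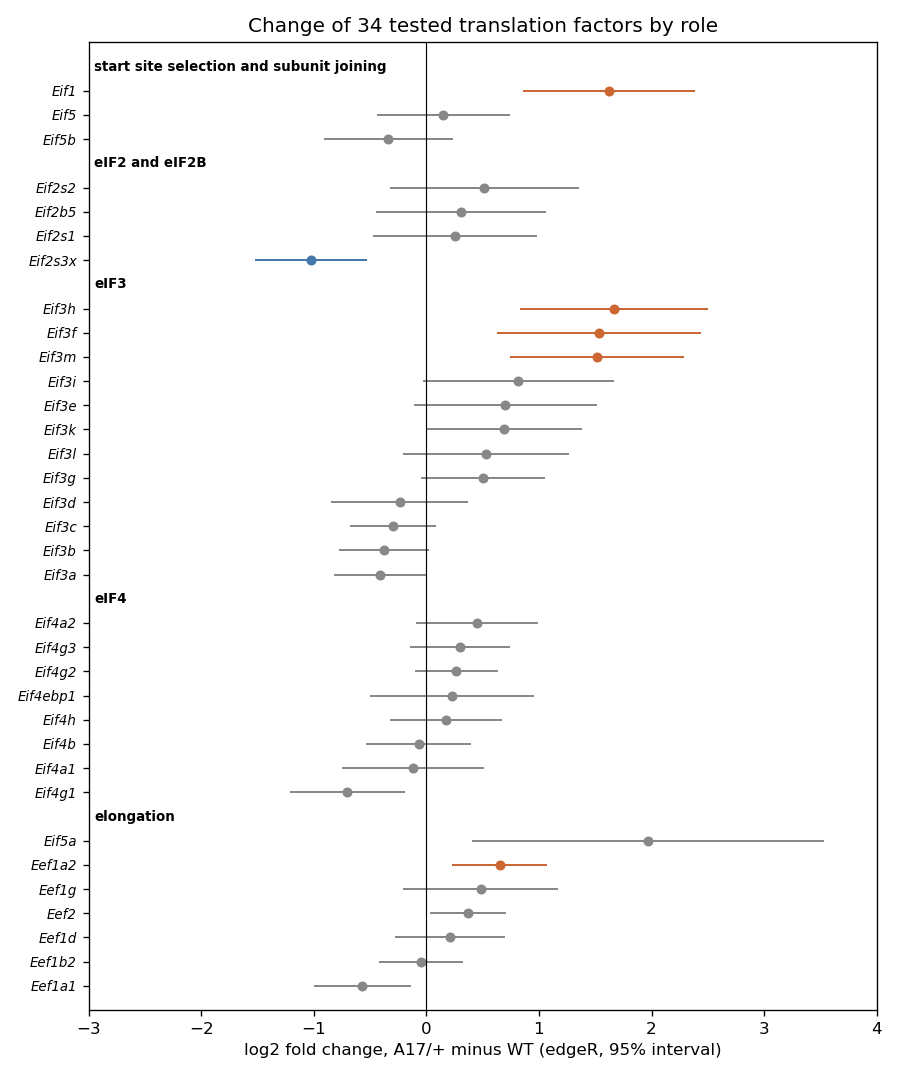
Log2 fold change (A17/+ minus WT, x axis) of the 34 tested members with its 95% interval, grouped by role on the y axis. Orange marks the 5 members that were higher, blue the 1 that was lower and grey those that did not pass. The 3 highest eIF3 values are Eif3h, Eif3f and Eif3m, and the lowest value of all is Eif2s3x at −1.03.

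Among the factors that choose the start codon, Eif1 rose 3.08-fold. Eif1 (ENSMUSG00000035530, mm10 chromosome 11, 100319885 to 100322096, plus strand) keeps the scanning ribosome open until the start codon is found. Its level was 37.9, 38.8, 37.2 and 32.5 CPM across WT 1 to 4 and 55.7, 198, 84.8 and 125 CPM across A17/+ 1 to 4. The WT libraries were close together, every A17/+ library was above them, and A17/+ 1 was the nearest. The log2 fold change was 1.62 (SE 0.357, edgeR adjusted p = 0.0103). Without both libraries numbered 1 it was 1.88 (adjusted p = 0.000806). Over 21 alternatives the adjusted p ran from 4.24e-05 to 0.0634, and only limma-voom missed the threshold.

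The libraries were primed on poly(A) tails, so the annotated 3' ends of the members that the results turn on are shown. Capitals mark the poly(A) signal, AATAAA or ATTAAA, near the end of the longest coding transcript of GENCODE M21 on GRCm38, the build of mm10.
Eif1: cttatttaAATAAAgcttgttttcagaaac
Eif3h: gccaatAATAAAactttaattggttgttca
Eif2s3x: catttaAATAAAacaagattctgaaacaag
Eif4g1: tgcctgtaattATTAAAcatgaattcaatt
Eef1a1: gagaccATTAAAacaagtttaatgagaaat
Of the 39 members 21 had AATAAA in the last 50 bases, 6 had ATTAAA only and 12, Eif3f, Eif3m and Eef1a2 among them, had neither. Of 5060 tested genes with a transcript, 66.0% had AATAAA, 14.9% ATTAAA only and 19.1% neither. The 3 signals of the members that passed are the common form, and Eif4g1 and Eef1a1, which did not pass, have the less common one. Eif3a and Eef2, which are also abundant and did not pass, have AATAAA.

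The other genes of this role did not pass. Eif5b, the GTPase of subunit joining, had 325, 297, 616 and 477 CPM across WT 1 to 4 and 303, 517, 271 and 257 CPM across A17/+ 1 to 4 (log2 fold change −0.34, edgeR adjusted p = 0.457). Eif5, which activates the GTPase of eIF2, had 91.4, 71.1, 125 and 48.8 CPM in WT and 93.6, 130, 79.1 and 79.8 CPM in A17/+ (0.15, adjusted p = 0.788). The groups overlapped for both. Eif1b, a close relative of Eif1, was below the filter, with raw counts of 0, 3, 0 and 1 across WT 1 to 4 and of 6, 9, 3 and 6 across A17/+ 1 to 4. Eif6, which keeps free large subunits from joining, was below it too, with 3 to 6 counts in WT and 2 to 16 in A17/+. In a fit without the filter their log2 values were 2.1 (95% interval 0.60 to 3.60, edgeR adjusted p = 0.105) and 0.60 (−0.35 to 1.56, adjusted p = 0.594).

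**Figure D2:**
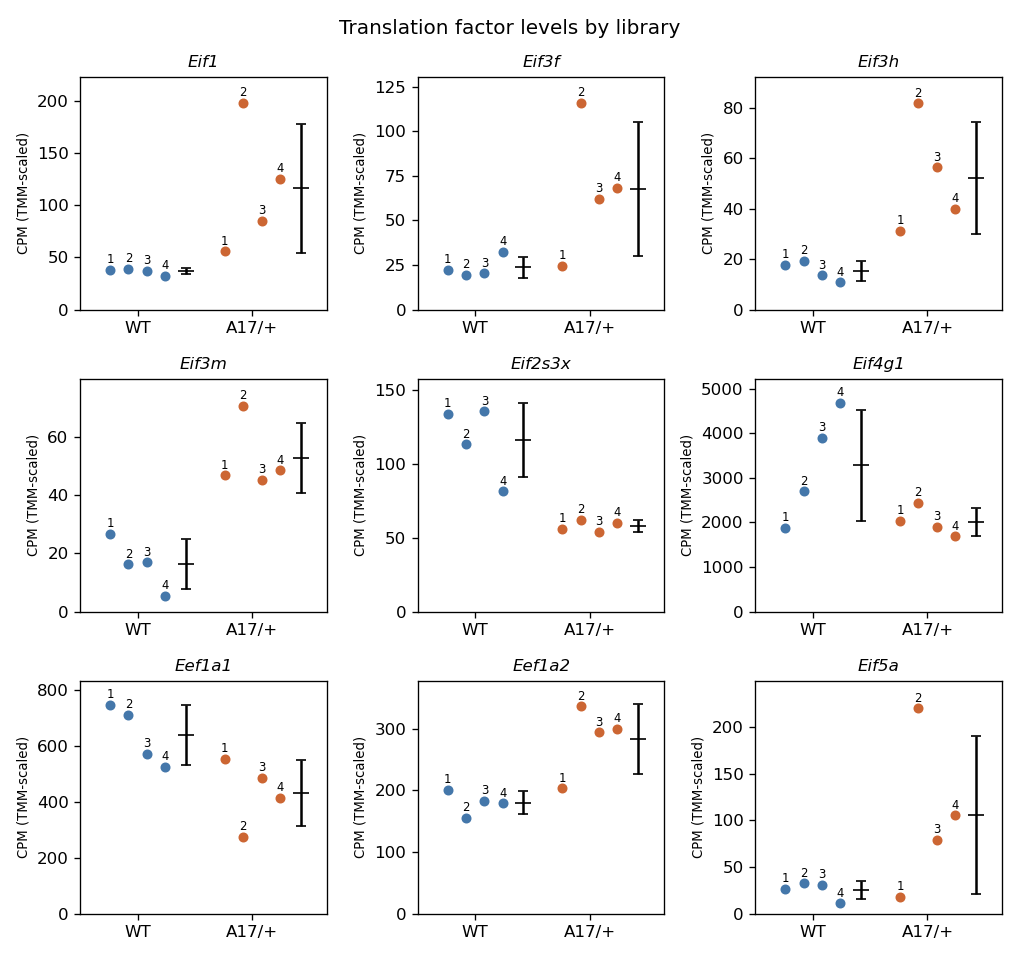
Level in CPM (y axis, starting at 0) of 9 members in each library, with the replicate number over each point and the mean ± SD (n = 4) in black. The WT and A17/+ points do not overlap for Eif1, Eif3h, Eif3m, Eif2s3x and Eef1a2. Eif3h met the count filter in A17/+ libraries only. A17/+ 1 lies inside the WT range for Eif3f and Eif5a, and the 4 Eif4g1 levels of A17/+ lie between 1687 and 2435.

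The only member that fell was Eif2s3x, the X-linked gene of the eIF2 gamma subunit that holds GTP and the initiator tRNA. Eif2s3x (ENSMUSG00000035150, chromosome X, 94188707 to 94212862, minus strand) had 134, 113, 135 and 81.3 CPM across WT 1 to 4. It had 55.7, 62.1, 53.7 and 59.9 CPM across A17/+ 1 to 4, a narrow range that lay wholly below WT. The log2 fold change was −1.03 (SE 0.232, edgeR adjusted p = 0.0115), and without both libraries numbered 1 it was −0.93. The call held under all 21 alternatives, with adjusted p from 0.00524 to 0.0484. Ddx3x, Kdm5c and Kdm6a, other X-linked genes that like Eif2s3x escape inactivation in mouse, had log2 fold changes of 0.14, 0.10 and −0.05. None of these 3, picked with their values already known, passed (edgeR adjusted p of 0.720, 0.891 and 0.950). Kdm5c had only 7 to 21 counts in a library and Kdm6a 4 to 28.

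The alpha and beta subunits of eIF2 did not pass. Eif2s2, the beta subunit, had 53.5, 48.5, 81.2 and 81.3 CPM in WT and 44.6, 184, 76.3 and 68.4 CPM in A17/+, where A17/+ 2 stood alone (log2 fold change 0.51, edgeR adjusted p = 0.446). Without A17/+ 2 its log2 fold change was −0.04. Eif2s1, the alpha subunit that stress kinases phosphorylate, had 40.1, 32.3, 30.5 and 16.3 CPM in WT and 37.9, 50.8, 22.6 and 39.9 CPM in A17/+ (0.26, adjusted p = 0.694). Eif2b5, the catalytic subunit of eIF2B, which recharges eIF2 with GTP, had 55.7, 25.9, 23.7 and 81.3 CPM in WT and 44.6, 56.5, 48.0 and 74.1 CPM in A17/+ (0.31, adjusted p = 0.637). The groups overlapped for each of these. Eif2b1 was below the filter, with 9, 3, 0 and 0 counts in WT and 7, 7, 7 and 3 in A17/+. Reads of Eif2s2 may be shared with a coding gene on the opposite strand that overlaps it, since the counting is not stated to use strand. Eif5b, Eif3m, Eif4a2 and Eef1b2 also have such an overlap, and Eef1d overlaps a coding gene on its own strand.

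All 12 listed eIF3 subunits were tested, 3 were higher and 0 lower, and 5 had an unadjusted p under 0.05. The j subunit gene Eif3j1, outside the list, did not pass (log2 fold change −0.52, edgeR adjusted p = 0.229). Over all tested genes 6.34% were higher, 2.61% were lower and 25.1% had an unadjusted p under 0.05. By structure, eIF3 has been divided into a module of subunits a, b, g and i, a module of c, d, e, k and l, and a module of f, h and m. The 3 higher subunits were the whole of the last module, while neither of the others had a member that passed. Eif3h and Eif3m have transcripts under 2000 bases, and 22.3% of all tested genes of that length were higher. With a length trend removed from each library, Eif3f still passed, while Eif3h and Eif3m did not. Eif3f was given the 2514 bases of its longest annotated coding transcript, which has no poly(A) signal near its end. Which form tongue expresses was not tested, so the length correction of Eif3f is uncertain. The median log2 fold changes were 1.53 for f, h and m, 0.53 for c, d, e, k and l and 0.07 for a, b, g and i.

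Eif3h rose 3.18-fold and is 1 of the pair of eIF3 subunits with an MPN fold. Eif3h (ENSMUSG00000022312, chromosome 15, 51786558 to 51865523, minus strand) had 17.8, 19.4, 13.5 and 10.8 CPM across WT 1 to 4 and 31.2, 81.9, 56.5 and 39.9 CPM across A17/+ 1 to 4. All A17/+ libraries were above all WT libraries, but Eif3h met the count filter in A17/+ libraries only. This separation therefore followed from the filter, and the test of Eif3h is not independent of it. The log2 fold change was 1.67 (SE 0.391, edgeR adjusted p = 0.0137), and these levels rest on 2 to 8 counts in a WT library and 14 to 29 in an A17/+ library. Eif3m, with a PCI domain, rose 2.86-fold. Eif3m (ENSMUSG00000027170, chromosome 2, 104999656 to 105017080, minus strand) had 26.7, 16.2, 16.9 and 5.42 CPM in WT and 46.8, 70.6, 45.2 and 48.5 CPM in A17/+. Again the groups did not overlap, and WT 1 was the highest WT library (log2 fold change 1.52, SE 0.361, adjusted p = 0.0145). Eif3f, the other MPN subunit, rose 2.89-fold. Eif3f (ENSMUSG00000031029, chromosome 7, 108934417 to 108942951, plus strand) had 22.3, 19.4, 20.3 and 32.5 CPM in WT and 24.5, 116, 62.2 and 68.4 CPM in A17/+. A17/+ 1 lay inside the WT range (log2 fold change 1.53, SE 0.425, adjusted p = 0.0324).

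Without both libraries numbered 1, the log2 fold changes of Eif3f, Eif3h and Eif3m were 1.82, 1.95 and 1.95 (edgeR adjusted p of 0.00221, 0.00391 and 0.00391). Eif3f missed the threshold without WT 2 (adjusted p = 0.0849), WT 3 (0.104), WT 4 (0.0551), A17/+ 2 (0.0751), A17/+ 3 (0.0690) or A17/+ 4 (0.0767), and its range over the alternatives was 0.000811 to 0.157. Eif3h missed it without WT 3 (0.0553, range 0.00221 to 0.0740), and Eif3m without WT 2 (0.0505) or WT 3 (0.0559, range 0.00391 to 0.0848). An overlapping coding gene on the opposite strand, Ccdc73, is in the table beside Eif3m.

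The share of f, h and m in the counts of the listed eIF3 subunits, which leave out Eif3j1, does not depend on library scaling. They made up 3.93%, 2.99%, 2.07% and 2.41% of these counts across WT 1 to 4 and 6.44%, 11.7%, 9.25% and 9.05% across A17/+ 1 to 4. Every A17/+ library was above every WT library, and A17/+ 1 was the lowest of its genotype. The total counts behind these shares were 373 to 763 in WT and 608 to 814 in A17/+. The subunits a, b, g and i took 69.2% ± 4.00 in WT and 61.2% ± 3.09 in A17/+, and c, d, e, k and l took 28.0% ± 3.26 and 29.7% ± 3.04 (SD, n = 4). No test is given for these shares because the members were chosen with results of these data known. The shares sum the subunits called higher from the same counts, so their separation restates those calls and adds no separate support. The shares were not adjusted for transcript length.

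**Figure D3:**
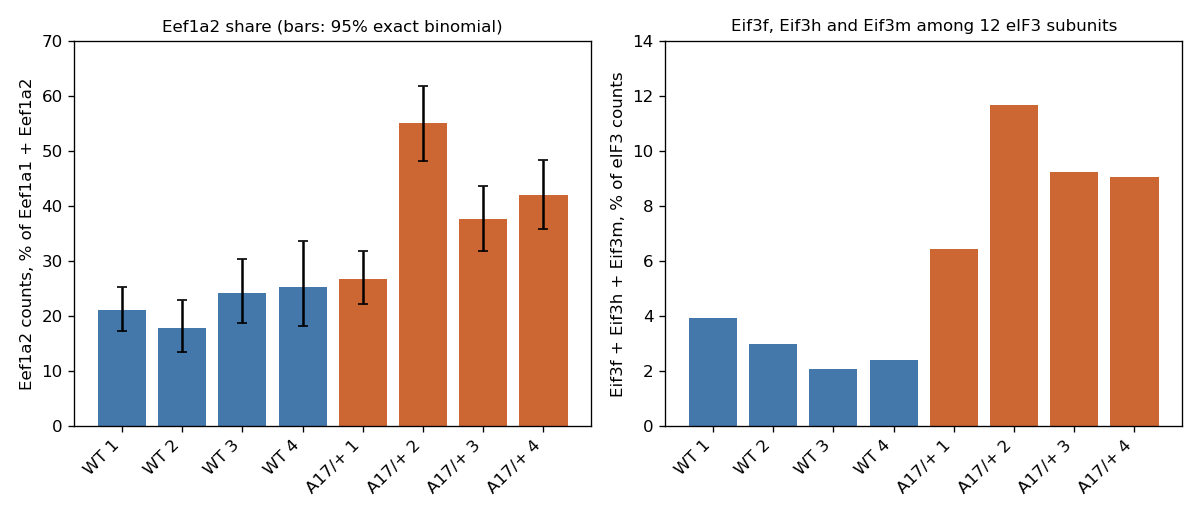
Left, Eef1a2 counts as a percent of Eef1a1 and Eef1a2 counts in each library, with 95% exact binomial intervals that cover counting error only. Right, Eif3f, Eif3h and Eif3m counts as a percent of the counts of the 12 listed eIF3 subunits. These subunits were called higher from the same counts, so the right panel restates those calls. In both panels the 4 A17/+ bars (orange) are above the 4 WT bars (blue), and A17/+ 1 is the lowest of the orange bars, at 26.8% and 6.44%.

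Of the eIF3 subunits that did not pass, Eif3a and Eif3b, which form the core that other subunits dock on, had lower means in A17/+. Eif3a had 664, 656, 1069 and 856 CPM across WT 1 to 4 and 555, 796, 571 and 519 CPM across A17/+ 1 to 4 (log2 fold change −0.41, edgeR adjusted p = 0.189). Eif3b had 328, 543, 572 and 493 CPM in WT and 334, 432, 364 and 356 CPM in A17/+ (−0.37, adjusted p = 0.214). WT 1 was the lowest WT library for Eif3b, and without it the log2 fold change was −0.57 (adjusted p = 0.0213). Eif3k had 53.5, 38.8, 40.6 and 27.1 CPM in WT and 33.4, 70.6, 90.4 and 79.8 CPM in A17/+ (0.69, adjusted p = 0.198). A17/+ 1 was inside the WT range for Eif3k, and without A17/+ 1 the value was 0.88 (adjusted p = 0.0462). Eif3i had 26.7, 25.9, 23.7 and 5.42 CPM in WT and 31.2, 62.1, 25.4 and 39.9 CPM in A17/+ (0.82, adjusted p = 0.211). Eif3e had 0.70 (adjusted p = 0.264) and, without A17/+ 1, 0.96 (adjusted p = 0.0346). Over 21 alternatives Eif3b passed in 1 (adjusted p from 0.0213 to 0.424), Eif3e in 2 (0.0346 to 0.680) and Eif3k in 2 (0.0147 to 0.660). The value of Eif3k changed sign in 1 of them. The log2 fold changes of Eif3c, Eif3d, Eif3g and Eif3l were −0.30, −0.24, 0.51 and 0.53.

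No eIF4 factor passed the test: 0 of 8 tested members were higher or lower by edgeR, 1 had an unadjusted p under 0.05, and 0 passed by DESeq2 or limma-voom. That 1 was Eif4g1, the scaffold that joins the cap-binding protein, the helicase and eIF3. Eif4g1 (ENSMUSG00000045983, chromosome 16, 20668313 to 20692884, plus strand) took 26.3% to 47.6% of the counts of all 39 members in a WT library and 23.8% to 29.0% in an A17/+ library. Its level was 1874, 2699, 3895 and 4681 CPM across WT 1 to 4 and 2038, 2435, 1901 and 1687 CPM across A17/+ 1 to 4. The WT libraries spread widely, WT 1 lay among the A17/+ libraries, and the other WT libraries were above all of them. The log2 fold change was −0.70 (SE 0.235, edgeR adjusted p = 0.0723). Without WT 1 it was −0.93 (adjusted p = 0.00483) and without A17/+ 1 it was −0.76 (adjusted p = 0.0438), within a range of 4.55e-05 to 0.188 over the alternatives. Eif4g1 passed as lower in 6 of 21 alternatives, among them upper quartile scaling (edgeR adjusted p = 0.0378), library totals (0.0233) and no filter (4.55e-05).

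Its paralogs had values of the other sign. Eif4g2, which serves initiation without the cap-binding protein, had 267, 310, 281 and 206 CPM in WT and 348, 308, 316 and 316 CPM in A17/+ (log2 fold change 0.27, edgeR adjusted p = 0.352). Eif4g3 had 136, 123, 159 and 114 CPM in WT and 190, 155, 172 and 140 CPM in A17/+ (0.30, adjusted p = 0.390). The groups overlapped for both, and neither value changed sign under any of the 21 alternatives. The helicase genes did not pass: Eif4a2 had 111, 93.7, 64.3 and 59.6 CPM in WT and 125, 81.9, 127 and 128 CPM in A17/+ (0.45, adjusted p = 0.285), and Eif4a1 had −0.12 (adjusted p = 0.854).

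The cap-binding protein gene Eif4e was below the filter, with raw counts of 10, 6, 5 and 0 across WT 1 to 4 and of 8, 17, 15 and 11 across A17/+ 1 to 4. Without the filter its log2 fold change was 0.97 (95% interval 0.10 to 1.84, edgeR adjusted p = 0.274). Its inhibitor Eif4ebp1, which mTOR kinase switches off, had 29.0, 22.6, 30.5 and 37.9 CPM in WT and 40.1, 45.2, 31.1 and 19.95 CPM in A17/+. The groups overlapped (0.23, 95% interval −0.49 to 0.94, adjusted p = 0.730). Eif4b and Eif4h, which assist the helicase, had −0.07 and 0.17.

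Of the elongation genes, Eef1a2 rose 1.57-fold, and Eef1a1, the general form, had a log2 fold change of −0.57 that did not pass. Eef1a2 (ENSMUSG00000016349, chromosome 2, 181147653 to 181157014, minus strand) had 201, 155, 183 and 179 CPM across WT 1 to 4 and 203, 336, 294 and 299 CPM across A17/+ 1 to 4. A17/+ 1 was only just above WT 1, and the other A17/+ libraries were well above (log2 fold change 0.65, SE 0.197, edgeR adjusted p = 0.0485). Eef1a1 (ENSMUSG00000037742, chromosome 9, 78478449 to 78489151, minus strand) had 747, 711, 572 and 526 CPM in WT and 553, 274, 486 and 413 CPM in A17/+. A17/+ 1 was the highest of its genotype and overlapped WT (SE 0.200, adjusted p = 0.0824). Without A17/+ 1 the Eef1a1 value was −0.76 (adjusted p = 0.0189), and its range over the alternatives was 0.0189 to 0.186. The genome holds many processed copies of Eef1a1, so the assignment of its reads is uncertain.

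The call for Eef1a2 lay at the threshold. It was lost in 16 of 21 alternatives, with adjusted p from 0.00624 to 0.153, and its log2 fold change stayed between 0.45 and 0.85. It was lost without WT 2 (0.153), WT 3 (0.120), WT 4 (0.108), A17/+ 2 (0.0882), A17/+ 3 (0.128) or A17/+ 4 (0.144), and with DESeq2 (0.0803). Without both libraries numbered 1 the log2 fold change was 0.85 (edgeR adjusted p = 0.00624).

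Within a library, the share of Eef1a2 in the counts of both genes needs no scaling, but it does depend on the uncertain assignment of Eef1a1 reads. This pair, like the other members, was chosen with earlier results of these data known. The share was 21.2%, 17.9%, 24.2% and 25.4% across WT 1 to 4 and 26.8%, 55.1%, 37.7% and 42% across A17/+ 1 to 4. All A17/+ shares were above all WT shares, but the 95% exact binomial interval of A17/+ 1, 22.2% to 31.9% of 339 counts, covers WT 3 and WT 4. The mean rose from 22.2% ± 3.35 to 40.4% ± 11.7 (SD, n = 4), a difference of 18.2 percentage points (two-sided exact permutation p = 0.0286, the smallest that 70 assignments allow). Without A17/+ 1 the difference was 22.8 points, and without A17/+ 2 it was 13.3 points, both with an exact permutation p of 0.0286. Without any 1 WT library it was 16.8 to 19.3 points (exact permutation p = 0.0571). Summed, both genes came to 818 ± 109 CPM over the WT libraries and 715 ± 75.0 CPM over the A17/+ libraries (SD, n = 4), ranges that overlap.

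Other cell types express mainly Eef1a1 and muscle fibres Eef1a2, so marker levels are given beside this share. The 8 muscle fibre markers summed to 7.31% to 9.83% of the scaled counts in WT and 9.39% to 10.9% in A17/+, and 5 of 8 were higher. Of 8 epithelial markers 7 were tested, 1 was lower and 0 higher, with sums of 1.26% to 1.39% in WT and 0.924% to 1.78% in A17/+. Of 6 fibroblast markers 2 were higher, with 0.0474% to 0.0672% in WT and 0.0649% to 0.123% in A17/+. Of 6 endothelial markers 0 were higher or lower by edgeR, and 0 had an unadjusted p under 0.05. Of 5 adipocyte markers 2 were tested and both were higher, with 0.0135% to 0.0330% in WT and 0.0562% to 0.0633% in A17/+. Of 5 blood markers 1 was tested and was higher, with 0.00201% to 0.00323% in WT and 0.0100% to 0.133% in A17/+. Of 5 smooth muscle markers 3 were tested and 2 were higher, with 0.0701% to 0.101% in WT and 0.104% to 0.171% in A17/+. Of 5 markers of Schwann cells and nerve 2 were tested and 1 was higher, with 0.00406% to 0.00921% in WT and 0.0174% to 0.0217% in A17/+. Of 6 macrophage markers 2 were tested and 0 passed by edgeR, 1 had an unadjusted p under 0.05, and the sums were 0.00981% to 0.0350% in WT and 0.0325% to 0.0393% in A17/+. None of these lists had a marker at 0 in every library. The part of these differences in the eEF1A share was not tested.

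The stretches just upstream of the RefSeq start of both eEF1A genes, and of Eif3f and Eif3m, are shown because the share of the eEF1A pair differed between the genotypes and both eIF3 subunits rose. Eef1a1 itself did not pass. Each is 100 bases of GRCm38.p6, 5' to 3' on the gene's strand, ending at the base before the start. Capitals mark matches on either strand to GGGCGG (the GC box), CANNTG (the E-box) or TATAA, none of which overlap here.
Eef1a1, chr9:78481725-78481824, minus strand: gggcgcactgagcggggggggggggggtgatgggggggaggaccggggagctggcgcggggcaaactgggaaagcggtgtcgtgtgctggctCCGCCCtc
Eef1a2, chr2:181157016-181157115, minus strand: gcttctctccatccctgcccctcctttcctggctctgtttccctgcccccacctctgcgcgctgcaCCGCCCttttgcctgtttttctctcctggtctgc
Eif3f, chr7:108934315-108934414, plus strand: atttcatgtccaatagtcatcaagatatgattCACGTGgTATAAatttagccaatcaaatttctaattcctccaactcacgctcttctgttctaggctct
Eif3m, chr2:105017028-105017127, minus strand: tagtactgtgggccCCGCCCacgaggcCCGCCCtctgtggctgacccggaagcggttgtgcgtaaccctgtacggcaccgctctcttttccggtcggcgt
Over 32851 promoter stretches of this length in the RefSeq table, 24.7% held the GC box, 34.4% the E-box and 10.2% TATAA. Eef1a1 and Eef1a2 each had 1 GC box and none of the other motifs. Eif3m had 2 GC boxes, and Eif3f had an E-box and TATAA with a single base between them. The table held a promoter for 31 of the 39 members.

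Of the other elongation factors none passed, with 0 of 6 called by edgeR and 3 at an unadjusted p under 0.05, counting Eef1a1. Eif5a, the hypusine-bearing factor that helps ribosomes past stalling sequences, had the largest fold change of the 34 tested members. It had 26.7, 32.3, 30.5 and 10.8 CPM across WT 1 to 4 and 17.8, 220, 79.1 and 105 CPM across A17/+ 1 to 4. A17/+ 1 was inside the WT range and the other A17/+ libraries were above it (log2 fold change 1.96, SE 0.689, edgeR adjusted p = 0.112). Without A17/+ 1 it was 2.28 (adjusted p = 0.000169), with DESeq2 on all libraries it was 2.00 (adjusted p = 0.00772), and over the alternatives the adjusted p ran from 1.32e-05 to 0.304. Eef2, the translocase, had 546, 498, 585 and 433 CPM in WT and 571, 743, 636 and 733 CPM in A17/+ (0.37, adjusted p = 0.145). Its kinase Eef2k, which inactivates it, was below the filter, with raw counts of 4, 8, 5 and 4 in WT and of 8, 10, 6 and 12 in A17/+. Eef1g had 123, 120, 91.4 and 59.6 CPM in WT and 89.2, 237, 153 and 88.4 CPM in A17/+ (0.48, adjusted p = 0.373). Eef1b2 and Eef1d, the exchange factor subunits that recharge eEF1A, had −0.05 and 0.21.

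Transcript length moved with these results. Across the 34 tested members the log2 fold change fell with the log2 of annotated length (Pearson r = −0.55, Spearman rho = −0.62), and across 5060 tested genes r was −0.39 and rho −0.25. These are correlations across genes that share the same 8 libraries, given as a description. Lengths are those of the longest annotated coding transcript, and the forms expressed in tongue were not tested. Of 15 tested members under 2000 bases, 3 were higher and 0 lower, and 22.3% of all tested genes of that length were higher. Of 11 members from 2000 up to 3500 bases 2 were higher, against 6.57% of all such genes. Of 8 longer members 0 were higher, against 1.66%, and 1 was lower. With a length trend removed from each library, Eif1 (1.04, edgeR adjusted p = 0.0358), Eif3f (1.39, 0.0353) and Eif2s3x (−1.03, 0.00970) still passed. Eif3h (1.1, 0.0523), Eif3m (0.97, 0.0848) and Eef1a2 (0.45, 0.133) did not, and Eef1a1 passed as lower (−0.81, 0.0286).

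**Figure D4:**
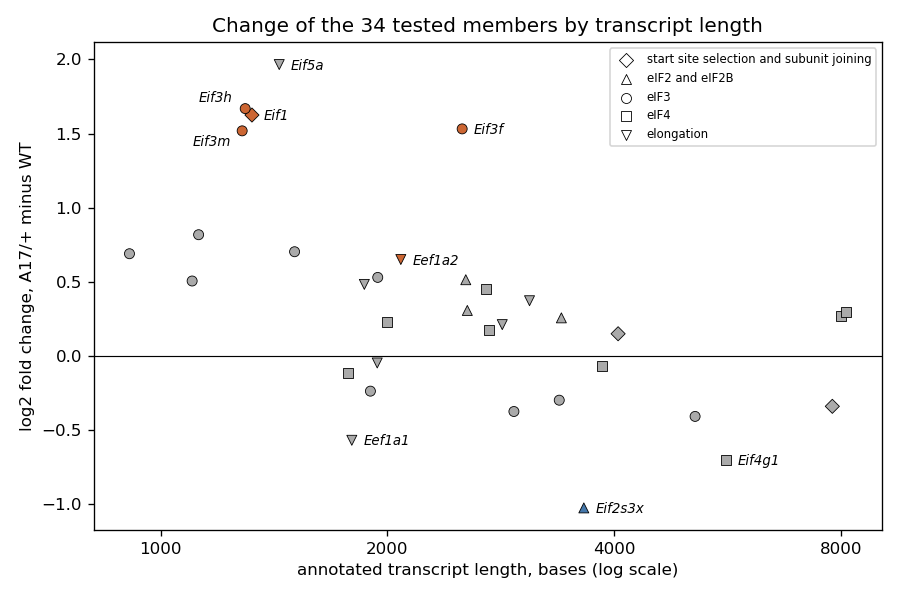
Log2 fold change (A17/+ minus WT, y axis) of the 34 tested members against the length of their longest coding transcript in bases (log axis). Symbols mark the role, orange the members that were higher, blue the 1 that was lower. Eif1, Eif3h and Eif3m lie together below 2000 bases, and Eif3f at 2514 and Eef1a2 at 2084 bases lie apart from them.

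Another 100 translation genes outside the list were counted, of which 67 were tested, 2 were higher and 1 was lower. Over all 5066 genes tested, 6.34% were higher and 2.61% lower. The median log2 fold change of the 67 was −0.03. The 3 that passed belong to the 9 tested partners of the poly(A) tail and of the eIF4F scaffold. Paip2, a repressor that takes the cytoplasmic poly(A) binding protein off the tail, had 69.1, 51.7, 47.4 and 48.8 CPM across WT 1 to 4 and 89.2, 113, 98.9 and 103 CPM across A17/+ 1 to 4. Its groups did not overlap (log2 fold change 0.86, edgeR adjusted p = 0.0290). Pabpc4, a cytoplasmic poly(A) binding protein, had 91.4, 54.9, 67.7 and 43.3 CPM in WT and 84.7, 209, 164 and 117 CPM in A17/+. A17/+ 1 lay inside the WT range (1.09, adjusted p = 0.0301). Pdcd4, an inhibitor of the eIF4A helicase, had 185, 223, 288 and 222 CPM in WT and 95.9, 178, 147 and 120 CPM in A17/+. All A17/+ libraries were below WT (−0.76, adjusted p = 0.0442).

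Each of these 3 calls was lost without some single libraries and under other settings. Paip2 missed the threshold without any of WT 2, 3 and 4 and A17/+ 2, 3 and 4, with adjusted p from 0.0536 to 0.105. Pabpc4 missed it without the same libraries, from 0.0504 to 0.0940. Pdcd4 missed it without WT 2, WT 3, WT 4, A17/+ 1, A17/+ 3 or A17/+ 4, from 0.0581 to 0.142. With all libraries, Paip2 also missed it with DESeq2 (0.0705), library totals (0.0618), no filter (0.109), thinned counts (0.0757) and limma-trend (0.0528), and with the length trend removed its log2 fold change was 0.48 (0.198). Pabpc4 missed it with limma-voom (0.0858) and thinned counts (0.117), and Pdcd4 with limma-voom (0.0590) and thinned counts (0.113). With the replicate block Paip2 (0.0622) and Pabpc4 (0.0552) missed it.

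No other group had a member that passed by edgeR. An unadjusted p under 0.05 was found for 25.1% of all tested genes, and for 17 of the 67 tested genes outside the list. Of 11 further initiation and elongation factors 2 had an unadjusted p under 0.05, Eif4e2, a cap-binding relative of Eif4e (log2 fold change −0.59, adjusted p = 0.0733), and Eif1ax (1.13, 0.0908). Of 12 genes of the mTOR axis and cap kinases 4 had one, with Rps6kb1, the S6 kinase (−0.69, 0.0925), and Mknk2, a kinase of eIF4E (0.77, 0.106), at the smallest p. Of 16 aminoacyl-tRNA synthetase genes 4 had one, and Nars (1.11, 0.0554) and Cars (−0.69, 0.0773) had the smallest. Of 5 mitochondrial translation factors 1 had one, the recycling factor Mrrf (−0.67, 0.0551), and Mtif3 had −0.42 (0.285). Of 4 tested targets of the integrated stress response 2 had one, Phgdh (−0.92, 0.0630) and Atf5 (1.18, 0.0794). Of 6 eIF2 kinases and phosphatase subunits 0 had one, and Ppp1r15a and Ppp1r15b had −0.60 (0.344) and 0.51 (0.568). Of 4 termination and recycling factors 0 had one, and Etf1 and Abce1 had 0.27 (0.583) and 0.14 (0.798). By DESeq2, 1 of the genes outside the list was higher and 1 was lower.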

How the data were processed

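Bulk tongue RNA of 8 mice was measured by mcSCRB-seq with oligo-dT primers and molecular identifiers, per the labels' protocols. The submitters' processing notes name cutadapt 2.10, STAR 2.7.5a, UMI-tools 1.1.1, HTSeq and mm10, and settings and annotation are not given in the sources used here. The deposited table holds raw counts per gene, and a second deposited kind of file, 1 per library, is on a log2 scale and entered 1 alternative only. Symbols, positions and lengths (longest coding transcript of the basic set) came from GENCODE M21, which named 19677 of 19857 genes. Counts were filtered with filterByExpr (minimum count 10, total 15), scaled by TMM and fitted with robust quasi-likelihood in edgeR 4.0.16 (R 4.3.3), genotype as the only term, with Benjamini-Hochberg adjustment over 5066 genes and a threshold of 0.05. SE is the log2 fold change over the root of F. The model was tested on simulated data. P-values rest on the spread between these mice.

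All 39 members are accounted for. Values by library are given for members past the threshold, for up to 4 others per role with the smallest p, and for Eef1a1, Eef1a2, Eif4e, Eif4ebp1, Eef2 and Eef2k. Of each list of other genes, up to 4 past the threshold are named, or up to 2 by smallest p, with Eif3j1 added beside eIF3. Members, lists and rules were chosen with earlier results of these data known. No library pair within a group agreed within sampling noise (chi-square over degrees of freedom 1.56 or more). Alternatives were other scalings and filters, DESeq2 1.42.0, limma-voom and limma-trend (limma 3.58.1), a replicate block, leaving out mitochondrial transcripts, thinning to the smallest library, a length trend removed by loess (span 0.5), and leaving out libraries. Limma-trend on the deposited values was added after the data were seen. Totals of 205696 to 485326 counts make a member at 10 CPM a few molecules, and binomial intervals (95%, exact) cover counting error only.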

Additional observations from a re-analysis of the deposited data

Results flagged for a closer look

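In 70 groups of 4 libraries (34 members and the Eef1a2 share, in each genotype), 4 had a library far from the other 3, and chance gives about 1 in 20. Eif3e in WT had 1 high library at 70.4 CPM, with the nearest other at 40.6. Eif3i in WT had 1 low library at 5.42 CPM, with the nearest at 23.7, which rests on 1 count. Eif3m in A17/+ had 1 high library, A17/+ 2, at 70.6 CPM, with the nearest at 48.5, and the other A17/+ libraries were still above every WT library. Eif4a2 in A17/+ had 1 low library, again A17/+ 2, at 81.9 CPM, with the nearest at 125.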

How the results depend on the processing

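Of the 39 members, 5 were higher and 1 lower, of all genes 321 and 132, and of the other translation genes 2 and 1. Leaving out 1 library at a time gave 1 to 8 members higher and 1 to 3 lower, 172 to 586 genes higher and 38 to 383 lower, and 0 to 8 other translation genes higher and 0 to 6 lower. Fewest were called without WT 3 (172 and 38 genes, 1 member higher), and without WT 1 507 and 383 genes were called. Without both libraries numbered 1 the counts were 8 and 3 members, 695 and 330 genes, and 9 and 7 other genes. Limma-voom called 1 member higher, 152 and 81 genes, and 1 and 0 other genes. Without a filter 3 members were lower, with 615 and 238 genes and 5 and 3 other genes. Library totals alone, which moved the median log2 fold change by −0.12, called 3 members lower, 289 genes lower and 1 and 7 other genes. Upper quartile scaling called 2 members and 2 other genes lower, a mean count of 10 or more 2 other genes lower, and DESeq2 1 other gene higher. Thinning to the smallest library left 1 member and 0 other genes higher. With the length trend removed 2 members were higher and 2 lower, 229 genes lower, and 1 and 5 other genes. Limma-trend called 2 members lower, 538 and 259 genes, and 5 and 6 other genes. The cause was not tested.

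Values that turned sign had all missed the threshold. These were Eif4b after thinning (0.16), Eif3g (−0.21) and Eif3k (−0.22) with the length trend removed, and Eif4a1 without both libraries numbered 1 (0.069). With 1 library left out, Eif5 ran from −0.047 (without WT 4) to 0.36, with −0.030 without A17/+ 2. Eif2s2 ran from −0.044 (without A17/+ 2) to 0.71, Eif4b from −0.18 to 0.033 (without A17/+ 3) and Abce1 from −0.029 (without A17/+ 2) to 0.26. The Eef1a2 share differed by 13.3 to 22.8 points with 1 library left out, and by 22.4 points without both numbered 1 (exact permutation p = 0.1, the smallest possible).

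Deviations of same-numbered libraries from the means of their genotypes correlated at 0.00406, 0.0719, −0.104 and −0.159. In the correlation of all tested genes, WT 1 and A17/+ 1 were still each other's closest library. Whether the replicate numbers pair the libraries was not tested beyond these values and the replicate block. With the replicate block 5 members were higher and 1 lower, of all genes 311 and 99, and of the other translation genes 0 and 1. The paired difference in the Eef1a2 share was 18.2 points (exact sign-flip permutation p = 0.125, the smallest that 4 pairs allow).

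Depth limits the low members: 5 of 39 could not be tested, and Eif3i and Eif3m had 1 count each in WT 4. After thinning, Eif3f, Eif3h, Eif3m and Eif5a were among the members below the filter, which gave no value there.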

Other observations

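Shares within pairs of related factors, which need no scaling, gave values that no comparison above uses. Eif4g2 made up 12.5%, 10.3%, 6.73% and 4.21% of the counts of Eif4g1 and Eif4g2 across WT 1 to 4 and 14.6%, 11.2%, 14.3% and 15.8% across A17/+ 1 to 4, and only WT 1 overlapped with A17/+. Eif4g3 made up 6.76%, 4.35%, 3.92% and 2.37% of the counts of Eif4g1 and Eif4g3 in WT and 8.51%, 6.0%, 8.31% and 7.64% in A17/+. The helicase gene Eif4a2 made up 65.8%, 70.7%, 50% and 47.8% of the counts of Eif4a1 and Eif4a2 in WT and 77.8%, 51.8%, 71.4% and 73.8% in A17/+, on 23 to 76 counts in a library.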
